A study of Mus musculus with 267 samples.

Results

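The response of the histone mark H3K27ac to 24 h of interleukin-4 (IL-4) was measured in bone marrow-derived macrophages of C57BL/6J mice (called C57) by ChIP-seq. All 67742 regions of open chromatin listed for this strain were taken, each 1000 bp wide, with the 2 untreated (basal) libraries and the 2 libraries of cells given 20 ng/mL IL-4 for 24 h, so that 4 of the 267 samples of the series carry the main comparison. Bone marrow had been grown into macrophages in medium with the growth factor M-CSF, which both groups share, and neither group carries an engineered allele. The mice were healthy females of 8 to 12 weeks. The labels call the libraries biological replicates without saying whether they came from separate mice, so the p-values below measure the spread between these libraries.

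H3K27ac is acetylation of lysine 27 of histone H3, a mark placed by the acetyltransferases CBP and p300 on the nucleosomes beside active promoters and enhancers. IL-4 binds a receptor that signals through JAK kinases and the transcription factor STAT6, and STAT6 and the factors it induces, such as EGR2, drive the alternatively activated macrophage state with its arginine metabolism, tissue repair and anti-parasite genes. Macrophage enhancers are opened by the lineage factor PU.1 together with C/EBP and AP-1 family members, and signal-activated factors act largely at enhancers that such factors hold.

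Regions were scored by a rule of size. A region counted as higher or lower at 24 h where the group means of normalized tags (reads per 10000000 of the library) plus 1 differed at least 2.5-fold with a mean of at least 16 in either group, both as deposited and after each library was rescaled by its median ratio over the regions, and where no basal library overlapped a 24 h library. Each region was assigned to the protein-coding gene with the nearest start, which does not show that the region acts on that gene. In bulk samples, fewer cells with a mark and less of the mark per cell cannot be told apart.

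Some of the largest changes are shown first as DNA (GRCm38.p6, the mm10 build, plus strand, 5′ to 3′), as the central 200 bases of each region. Capitals mark words of known factor motifs found by search on either strand. In Tex9 and Nbas they are the STAT6-type word, TTC and GAA with a gap of 4 bases, and Tex9 also has the C/EBP-type word TTGCNCAA. In Ang5 they are the AP-1-type word TGANTCA, and in Mcf2l the STAT-type word TTCNNNGAA, where 128 bases are shown because the rest lies in an annotated untranslated region. The region at Pilra, with the largest decrease, lay almost wholly in untranslated sequence and is not shown. The region nearest to Dlx2 held none of the 8 words searched.

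Tex9, higher, intron of Tex9, chr9:72485533-72485732: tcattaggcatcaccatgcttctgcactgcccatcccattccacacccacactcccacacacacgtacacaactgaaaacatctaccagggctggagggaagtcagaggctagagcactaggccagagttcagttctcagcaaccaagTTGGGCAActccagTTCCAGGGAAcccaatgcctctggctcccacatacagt

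Nbas, higher, intron of Nbas, chr12:13410248-13410447: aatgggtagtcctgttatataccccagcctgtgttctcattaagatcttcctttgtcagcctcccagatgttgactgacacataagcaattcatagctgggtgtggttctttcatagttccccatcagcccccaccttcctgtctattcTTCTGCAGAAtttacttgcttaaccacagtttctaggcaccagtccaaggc

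Ang5, higher, intergenic, chr14:43965939-43966138: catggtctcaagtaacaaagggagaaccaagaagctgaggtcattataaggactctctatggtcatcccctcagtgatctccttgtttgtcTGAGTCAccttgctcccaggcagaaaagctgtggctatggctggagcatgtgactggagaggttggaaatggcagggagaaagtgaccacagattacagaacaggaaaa

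Mcf2l, higher, promoter of Mcf2l, chr8:12949288-12949415: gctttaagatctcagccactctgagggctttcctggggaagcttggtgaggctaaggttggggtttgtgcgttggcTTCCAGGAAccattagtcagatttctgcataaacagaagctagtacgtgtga

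Dlx2, lower, intron of the Mir5098 host transcript, chr2:71662074-71662273: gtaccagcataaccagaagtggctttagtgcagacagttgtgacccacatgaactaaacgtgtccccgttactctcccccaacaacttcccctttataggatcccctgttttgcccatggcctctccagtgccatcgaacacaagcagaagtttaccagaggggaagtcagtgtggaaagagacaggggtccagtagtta

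In the Tex9 intron, 6324 bp from the gene start, H3K27ac was 1.36 and 0 normalized tags in the basal libraries and 53.5 and 103 at 24 h. The basal libraries together held 2 reads there, so the ratio of reads was 117 with an exact 95% interval of 32 to 973, which covers counting error only. In the Nbas intron it went from 2.04 and 0.71 to 76.4 and 124. Basal and 24 h libraries were far apart in both, and in a fit over the whole time course (limma, described below) both rose, with adjusted p of 0.000825 at Tex9 and 0.000480 at Nbas.

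Beside Ang5, one of the angiogenin and ribonuclease genes of chromosome 14, the mark went from 1.36 and 2.85 to 104 and 152 normalized tags (limma log2 fold 5.39 ± 0.53 SE). At the Mcf2l promoter it went from 0 and 0.71 to 77.2 and 28.9, with a ratio of reads of 144 (25.4 to 5718) since the basal libraries held 1 read. Both rose in the time-course fit (limma adjusted p 0.000825 for each), and in Mcf2l the 24 h libraries differed from each other by more than 2.5-fold. In the opposite direction, the promoter of Pilra, an inhibitory receptor of myeloid cells (chr5:137835682-137836682), went from 54.3 and 48.5 to 3.40 and 1.97, and the region nearest to Dlx2 from 283 and 540 to 16.1 and 44.6. Both fell in the time-course fit (limma adjusted p 0.00209 and 0.0056).

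**Figure D1:**
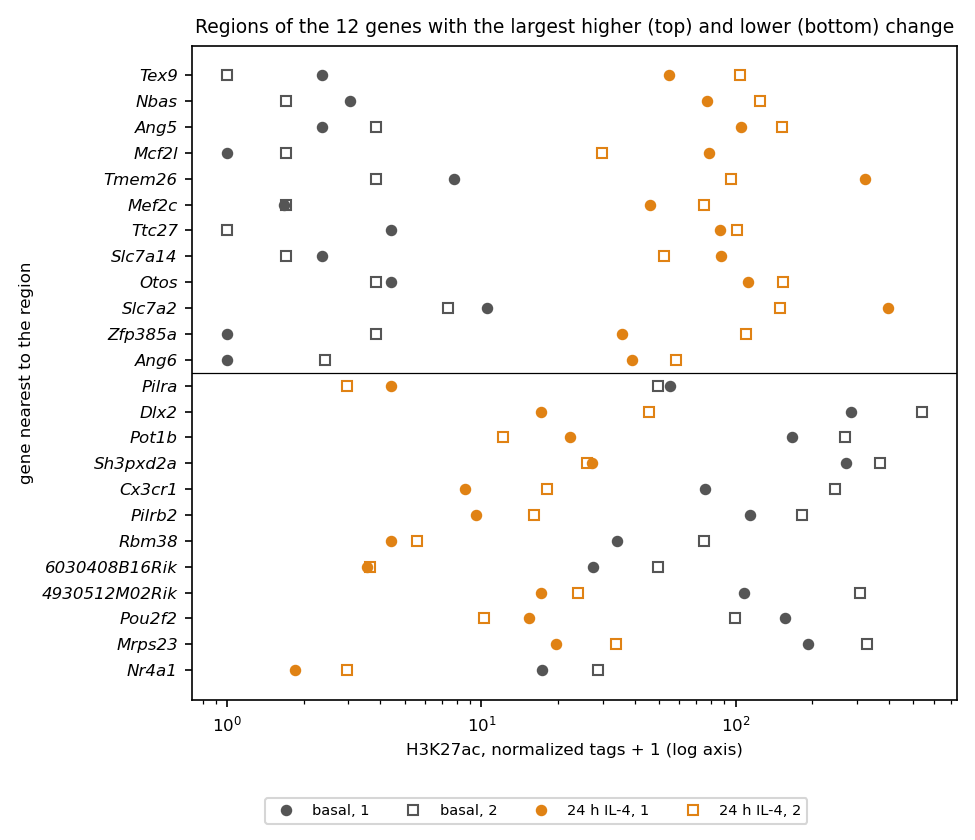
H3K27ac in each library at 1 region of each of the 12 genes with the largest increase (top) and the 12 with the largest decrease (bottom). The horizontal log axis gives normalized tags plus 1, and filled circles and open squares are replicates 1 and 2 of basal (grey) and 24 h IL-4 (orange) macrophages. The groups do not overlap in any of the 24 regions because regions were chosen for that. Tex9 went from 1.36 and 0 to 53.5 and 103 tags.

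Over the whole genome, as deposited, 2344 regions (3.46% of all regions) were past the fold rule in the higher direction and 5117 (7.55%) in the lower one. The balance depended on scaling. Library totals were 14739930 and 14024234 tags in basal and 11780899 and 15236793 in 24 h macrophages, but 65.4% and 59.6% of basal tags lay in the regions against 43.2% and 38.2% at 24 h. The median log2 fold over the 41685 regions with a mean of at least 16 tags in either group was -0.62 as deposited and -0.28 after median-ratio rescaling, and the rescaled counts were 3564 higher and 2185 lower. The share of changes that were higher thus went from 31.4% to 62.0%. Under both scalings and without overlap, 2205 regions were higher (3.25%) and 2115 lower (3.12%), and these 2 sets are described below as the higher and the lower regions. Of the 41685 regions 61.6% did not overlap between groups.

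Starting levels differed between the sets, in part because the rule asks for at least 16 tags in either group, which a lower region must then have in basal cells. The median of higher regions was 8.82 and 7.84 normalized tags in the basal libraries and 38.2 and 45.9 at 24 h, and 71.1% had a basal mean under 16, against 43.1% of all regions. Lower regions had medians of 90.2 and 133 in basal and 22.9 and 29.5 at 24 h libraries. The higher regions lay nearest to 1249 genes and the lower ones to 1207, and 95 genes had both. Of the 2205 higher regions, 63 lay at mitochondrial DNA or at the multi-copy genes Sfi1 and Gm10800 and their like, where reads of near-identical copies cannot be placed with certainty, and 2142 lay elsewhere.

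**Figure D2:**
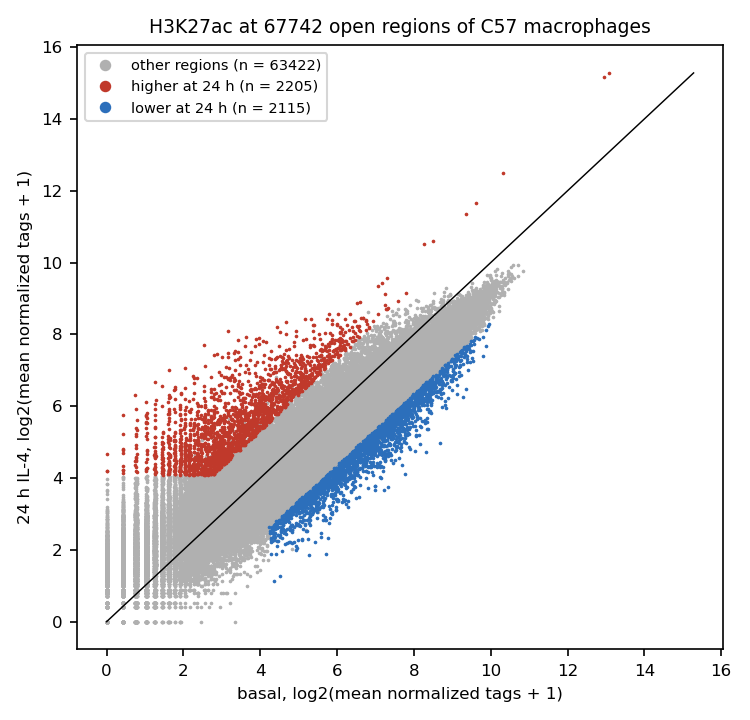
Mean H3K27ac of the 2 basal libraries (horizontal) against the mean of the 2 libraries at 24 h (vertical), each as log2(normalized tags + 1), for 67742 regions, with the diagonal marking equal values. The 2205 higher regions (red) begin mostly at low basal values and the 2115 lower regions (blue) at high ones, and the 2 red points farthest to the right lie at the multi-copy gene Gm10800.

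A limma test on the 4 libraries alone, without a block for the replicate number, called no region. limma with Benjamini-Hochberg adjustment at 0.05 gave 0 higher and 0 lower regions, although 14904 were under 0.05 before adjustment. On recovered reads edgeR also called 0, and DESeq2 called 1073 higher and 2524 lower. Without basal replicate 1, limma called 205 higher and 35 lower, without basal replicate 2 it called 100 and 0, and without either 24 h library 0. A group left with 1 library is assumed in these fits to vary like the other group. Replicates differed beyond sampling noise, with a chi-square per degree of freedom of 17.3 between the basal and 10.3 between the 24 h libraries. Same-numbered libraries deviated together (correlation 0.71), and fits with the replicate number as a block are given at the end.

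The time-course table, which holds the same 4 libraries with 2 more at 1 h and 2 at 6 h, estimates the spread from more libraries. limma over its 77955 regions called 878 higher (1.13%) and 255 lower (0.327%) at 24 h. The calls depended on single libraries, with 741 and 214 without basal replicate 1, 561 and 21 without basal replicate 2, 555 and 89 without 24 h replicate 1 and 348 and 102 without 24 h replicate 2. Without a 1 h library they were 1690 and 2244 (replicate 1) or 1667 and 2080 (replicate 2), and without a 6 h library 415 and 31 or 417 and 30. Of the higher regions, 525 were called higher and 0 lower. Of the lower regions, 235 were called lower and 0 higher. These calls share their libraries with the rule of size, so the signs are no independent check, and "rose" and "fell" are used below only for regions called in this fit.

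The 1 h and 6 h values of the called regions follow. Since the regions were chosen for a difference at 24 h, changes seen only at 1 h or 6 h are not among them and a late maximum is favoured. The folds at 1 h, 6 h and 24 h also share the same 2 basal libraries. An extreme basal value that helped a region to be called therefore shifts all of them in the same direction. Regions called higher at 24 h had a median of 3.14 normalized tags in basal macrophages, 15.4 at 1 h, 36.2 at 6 h and 41.1 at 24 h, and the highest mean was at 24 h in 506, at 6 h in 354 and at 1 h in 18 of them. Regions called lower went from a median of 168 to 28.0 at 1 h, 25.7 at 6 h and 26.8 at 24 h. Their median log2 fold was -2.39 at 1 h, -2.55 at 6 h and -2.57 at 24 h as deposited, but -1.55, -2.36 and -2.26 after median-ratio rescaling. Among the regions called higher, after rescaling the highest mean was at 24 h in 508, at 6 h in 276 and at 1 h in 94.

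The lowest adjusted p belonged to a second region beside Ang5 (chr14:43966889-43967889, 10320 bp from its start). It held 2.04 and 0 tags in basal libraries, 83.5 and 28.6 at 1 h, 206 and 262 at 6 h and 202 and 221 at 24 h (limma adjusted p 0.00013). Another region lay 1534 bp before the start of Socs1, whose product inhibits JAK kinases (chr16:10786570-10787570). There tags went from 6.11 and 1.43 to 130 and 76.8 at 1 h, 182 and 262 at 6 h and 154 and 203 at 24 h (limma adjusted p 0.00049). Both regions were already above every basal library at 1 h.

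An intron of Il31ra, a cytokine receptor subunit (chr13:112551345-112552345), was slower, with 5.43 and 3.57 tags in basal, 26.3 and 18.2 at 1 h, 113 and 136 at 6 h and 199 and 161 at 24 h (limma adjusted p 0.00048). A region 12134 bp from the start of Jak2, the receptor-associated kinase gene, went from 2.04 and 2.14 to 98.5 and 58.4 at 24 h (limma adjusted p 0.000825). Among the falls, a region near Pot1b went from 162 and 262 to 16.2 and 23.4 by 1 h and stood at 21.2 and 11.2 at 24 h (limma adjusted p 0.00278). An intron of Ppcdc, an enzyme gene of coenzyme A synthesis, went from 187 and 277 to 30.2 and 30.6 at 1 h and 29.7 and 25.6 at 24 h (limma adjusted p 0.00701). In both, the 1 h and 24 h libraries lay together below the basal ones.

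By annotation class, changes were less frequent at promoters than at introns or intergenic regions. Of 12060 promoter regions, 0.72% were higher and 1.42% lower, against 3.57% and 3.23% of 28711 intronic and 4.49% and 4.13% of 21758 intergenic regions. Promoters made up 3.95% of the higher regions (87) and 8.09% of the lower ones (171), although they were 17.8% of all regions. Introns gave 1024 and 928 and intergenic regions 977 and 898. Among the smaller classes, 3′ untranslated regions were higher in 2.83% and lower in 3.82%, transcription ends in 2.83% and 3.33%, exons in 1.53% each way, 5′ untranslated regions in 0.86% and 1.30% and non-coding transcripts in 3.25% and 1.44%.

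The share that was higher grew with distance from the nearest start, from 1.01% within 1 kb to 2.93% at 1 to 10 kb, 4.17% at 10 to 50 kb, 4.82% at 50 to 100 kb and 5.07% beyond 100 kb. The lower share went from 1.63% to 3.63%, 3.49%, 3.42% and 4.03% over the same bins. The median distance was 23013 bp for higher and 14969 bp for lower regions, against 10900 bp for all. The listed openness of the chromatin went along with the direction, since 4.33% of 11513 regions open at 24 h only were higher and 1.24% lower, while of 20791 regions open in basal cells only 2.41% were higher and 4.37% lower. Regions open in both gave 3.40% and 3.0%. A further 12 regions lay on mitochondrial DNA, of which 11 were higher, with summed tags of 431 and 35.0 in basal and 582 and 2541 at 24 h, so that 1 library carried most of that signal.

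**Figure D3:**
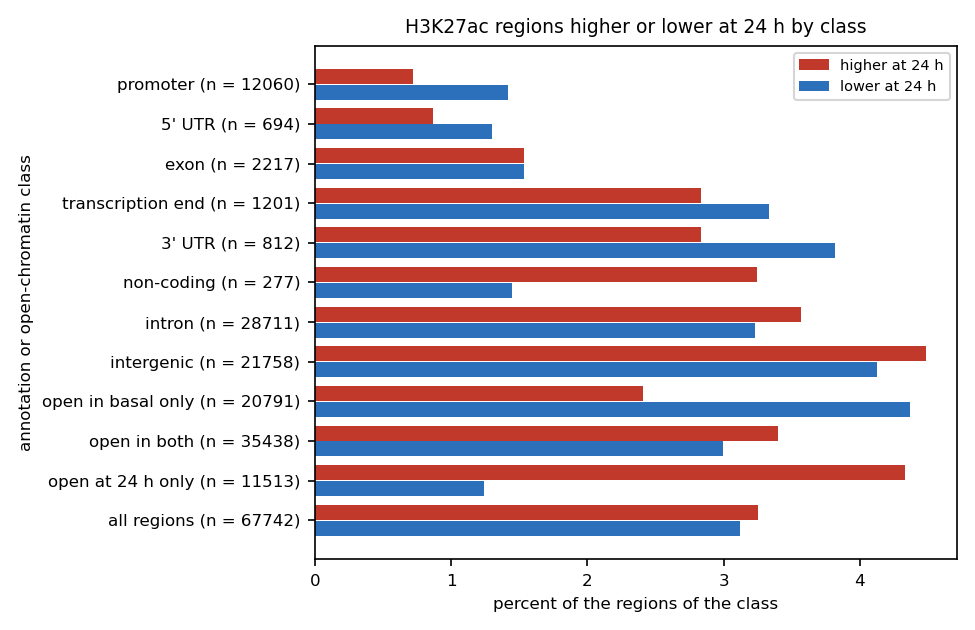
Percent of the regions of each annotation or open-chromatin class (n in brackets) that were higher (red) or lower (blue) at 24 h. Promoters have 0.72% higher and 1.42% lower, intergenic regions 4.49% and 4.13%, and regions open at 24 h only 4.33% and 1.24%.

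Of the 15 gene lists, IL-4 effector genes had the largest share of higher regions. Of 145 regions nearest to 20 IL-4 effector genes, 37 (25.5%) were higher and 6 (4.14%) lower, with a median log2 fold of 0.69 over those with at least 16 tags, beside -0.62 over all such regions. The time-course fit called 19 of them higher and 0 lower. Genes with a higher region numbered 12, and 7 had neither kind. Retnla and Ear11, also on the list, were nearest to no region.

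At the start of Tmem26, a transmembrane protein gene used as a marker of this state (chr10:68723383-68724383), tags went from 6.78 and 2.85 to 323 and 94.5. It rose in the time-course fit (limma adjusted p 0.00367), and 5 of its 10 regions were higher. The promoter of Slc7a2, the arginine transporter gene (chr8:40861966-40862966), went from 9.50 and 6.42 to 396 and 149 (limma log2 fold 4.79 ± 0.57 SE, time-course adjusted p 0.0065). In both genes replicate 1 at 24 h stood well above replicate 2, and both stood far above the basal libraries.

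Beside Msx3, a homeobox gene, tags went from 4.07 and 5.70 to 137 and 140, and the single region of Chil4, a chitinase-like protein gene, from 8.14 and 1.43 to 75.5 and 72.9. Both rose (limma time-course adjusted p 0.00111 and 0.0046). Other members with several higher regions were Cdh1 (5 of 7), which encodes E-cadherin, the VEGF receptor gene Flt1 (7 of 16) and the lectin gene Mgl2 (3 of 3). Chosen after its values were seen, Atp6v0d2, a subunit gene of the lysosomal proton pump, had regions in both directions: its promoter went from 90.9 and 80.6 to 361 and 297, while 4 of its 10 regions were lower.

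Other hallmark genes changed less at the sites listed. The promoter of Arg1, which encodes arginase 1 (chr10:24927728-24928728), went from 66.5 and 60.6 to 178 and 212, past the rule of size but not called (limma time-course adjusted p 0.217), and 3 of its 7 regions were higher. The promoter of Mrc1, the mannose receptor gene, held 219 and 271 in basal and 199 and 253 at 24 h, and the groups overlapped. Its log2 fold of -0.12 became 0.23 after median-ratio rescaling. The strongest region of Chil3, 5167 bp before its start, went from 1.36 and 2.14 to 5.94 and 11.2, below the minimum of 16 tags.

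In the receptor and feedback pathway, 24 of 197 regions were higher (12.2%) and 5 lower (2.54%), with 17 called higher and 1 lower in the time-course fit. The higher ones sat at 5 genes, namely Socs1 (11 of 17 regions), Cish (5 of 7), Jak2 (4 of 10), Socs2 (2 of 9) and Irs2 (2 of 42), of which Socs1, Socs2 and Cish encode cytokine-induced inhibitors of JAK-STAT signalling. The region 11395 bp from the Cish start went from 4.75 and 1.43 to 89.1 and 89.9 and rose (limma time-course adjusted p 0.000825). The Socs1 promoter itself (chr16:10785079-10786079) held 480.3 and 256.0 in basal and 686 and 452 at 24 h, so the groups overlapped there. At the receptor gene Il4ra the promoter held 367 and 237 against 194 and 104, with a log2 fold of -1.02 that was -0.67 after rescaling and no call (limma time-course adjusted p 0.397). The lower regions were at Stat6 (2 of 6), Ptpn6 (2 of 6), a phosphatase gene, and Socs3 (1 of 18).

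Genes of signal-dependent transcription factors had 57 of 337 regions higher (16.9%) and 14 lower (4.15%), with 13 called higher and 3 lower. Bhlhe40, a helix-loop-helix repressor gene, had 23 of 38 regions higher and 0 lower. Its largest change, 91042 bp before the start (chr6:108569087-108570087), was from 8.82 and 5.70 to 115 and 110, and it rose (limma time-course adjusted p 0.0067). Batf3 (6 of 13), Irf4 (6 of 15), Egr1 (4 of 11), Egr2 (4 of 13) and Klf4 (4 of 41) followed, with Myc and Klf6 at 3 each and Nab1 and Batf at 2 each. A region 4977 bp before the start of Batf3 went from 2.04 and 2.85 to 45.0 and 132 (limma time-course adjusted p 0.0012).

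The Egr2 promoter (chr10:67536447-67537447) went from 116 and 71.3 to 296 and 189, with groups apart but no call (limma time-course adjusted p 0.243). Farther out, 13 of 33 regions whose nearest start is that of Ado, a thiol dioxygenase gene beside Egr2, were higher. They lay 69589 to 190737 bp from the Egr2 start. The strongest of them (chr10:67628676-67629676) went from 35.3 and 47.1 to 359.9 and 256.0 and rose (limma time-course adjusted p 0.0166). Lower regions of the list were at Nr4a1 (6 of 11), an early-response nuclear receptor gene, Egr3 (3 of 17), Egr1 and Rxra (2 each) and Batf (1), so that Egr1 and Batf had regions in both directions. Near the Nr4a1 start tags went from 16.3 and 27.8 to 0.85 and 1.97, a fall (limma time-course adjusted p 0.0144).

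In lineage factor genes, 9 of 350 regions were higher (2.57%) and 24 lower (6.86%), though 17 of the 24 were at a single gene, Maf. Maf encodes a large basic leucine zipper factor of resident macrophages, and 109769 bp from its start (chr8:115596827-115597827) tags went from 167 and 394 to 24.6 and 47.3, a fall (limma time-course adjusted p 0.0204). The strongest region of Spi1, the gene of PU.1, held 1398 and 1112 in basal and 665 and 588 at 24 h. Its log2 fold was -1.0 as deposited and -0.65 after rescaling, and it was not called (limma time-course adjusted p 0.408).

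Sensors and receptors of the innate system had the largest share of lower regions among the 15 gene lists. The list of Toll-like receptor and C-type lectin genes also holds Cd14, Ly96, Myd88 and genes of the Pilr and Trem receptors. Of its 137 regions, 25 (18.2%) were lower and 4 higher, and 7 were called lower. More of the 25 were at Pilra, Pilrb1, Cd14 and Myd88 than at the Toll-like receptor and lectin genes themselves. The 4 higher ones were 3 of Treml2 and 1 of Tlr4. Pilra had 7 of 8 regions lower, Cd14, the lipopolysaccharide co-receptor gene, 5 of 6, Tlr2 5 of 13, and Pilrb1 and Clec4d 2 each. In the Cd14 exon tags went from 497 and 742 to 72.2 and 79.4, a fall (limma log2 fold -2.99 ± 0.35 SE, time-course adjusted p 0.0183). Pilra, Pilrb1 and Pilrb2 are close paralogs, so their reads are less certain.

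Among chemokine and formyl peptide receptor genes, 14 of 100 regions were lower and 1, at Cmklr1, was higher. The promoter of Cx3cr1, the fractalkine receptor gene (chr9:120068416-120069416), went from 74.6 and 244 to 7.64 and 17.1 and fell (limma time-course adjusted p 0.0153), and 5 of its 6 regions were lower. Fpr2 had 4 of 5 and Ccr3 had 3 of 6 lower regions. Beside Fpr1, tags went from 133 and 137 to 23.8 and 24.9 without a call (limma time-course adjusted p 0.0626).

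NF-kB and inflammatory genes had 17 of 208 regions lower (8.17%) and 6 higher, with 3 called lower. Of the 17, 7 were at Nfkbiz, which encodes an atypical inhibitor of NF-kB family, and 6 at the inflammasome gene Nlrp3. A region 67579 bp from Nfkbiz went from 157 and 193 to 23.8 and 17.1 and fell (limma time-course adjusted p 0.00921). The strongest region of Il1b, the interleukin-1 beta gene, went from 362 and 172 to 104 and 70.2, with a log2 fold of -1.60 as deposited and -1.25 after rescaling, so that it did not count as lower.

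Fc receptor genes split by member. All 5 higher regions of 36 were at Fcgr2b, the inhibitory receptor, and the 4 lower ones at Fcgr1 (2), Fcgr4 and Fcer1g. Fcgr3 had 8 regions, of which 0 were higher and 0 lower. The time-course fit called 1 region of the list higher and 0 lower. In an exon of Fcgr2b tags went from 6.11 and 15 to 89.1 and 106, a rise (limma time-course adjusted p 0.0258), and at the Fcgr1 promoter from 685 and 643 to 157 and 158 (limma time-course adjusted p 0.0775).

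Chemokine and PD-1 ligand genes had 7 of 59 regions higher (11.9%) at 5 of their 10 genes, namely Ccl2 and Pdcd1lg2, the gene of the PD-1 ligand PD-L2, with 2 each and Ccl9, Ccl12 and Ccl17 with 1 each. The 2 lower ones (3.39%) were at Pf4, and the time-course fit called 0 in either direction.

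In the other 6 lists the shares ran from 0 to 3.43% higher and from 0 to 4.60% lower. MHC class II genes had 1 of 58 higher (H2-DMb2) and 0 lower. Lipid genes had 7 of 204 higher and 5 lower, and glycolysis and TCA cycle genes 3 of 196 and 5. Lysosome genes had 4 of 190 higher, 2 of them at Psap and 1 each at Ctsl and Lamp2, and 0 lower. Cell cycle genes had 0 of 144 higher and 4 lower (2 at Ccnd3 and 1 each at Ccne2 and Cdk1). Interferon-stimulated genes had 2 of 87 higher (Usp18 and Gbp2) and 4 lower, 2 of them at Isg20 and 1 each at Oasl1 and Oas3. Their summed tags differed more between replicates than between groups, at 15052 and 6005 in basal and 7953 and 3311 at 24 h.

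**Figure D4:**
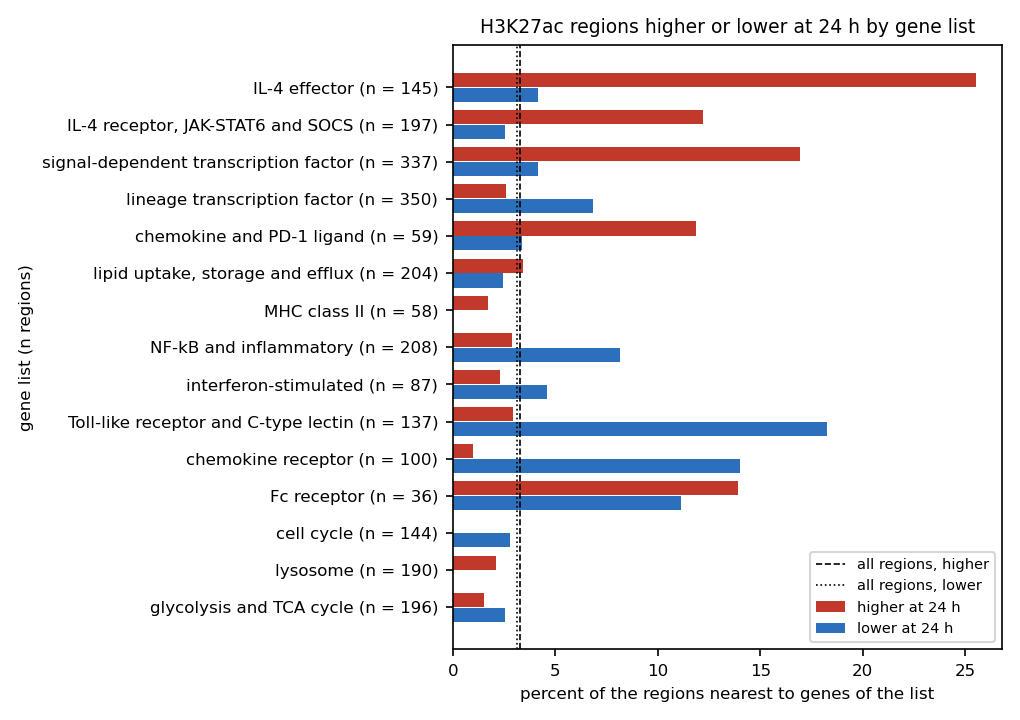
Percent of the regions nearest to the genes of each list (n regions in brackets) that were higher (red) or lower (blue) at 24 h, with dashed and dotted lines for the same shares over all regions, 3.25% and 3.12%. IL-4 effector genes stand out in the higher direction (25.5%) and the Toll-like receptor and lectin list in the lower one (18.2%). The latter list also holds Cd14, Ly96, Myd88 and genes of the Pilr and Trem receptors.

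The cells carried the mark at macrophage genes. All 9 macrophage markers had regions, and the median of their promoters was 646 and 584 tags in basal and 312 and 264 at 24 h, with 1 of 80 regions higher and 4 lower. Promoter regions of T cell, fibroblast and erythroid markers (1 each) held at most 7.22, 6.56 and 8.49 tags in any library. Those of dendritic cell, mast cell and neutrophil markers (2 each) held at most 3.40, 4.27 and 43.1 at the median. B cell markers had no promoter region. With so few promoters, these values do not show that the mark was absent at such genes. Summed over all 7 regions, erythroid markers held 518 and 1043 tags in the basal libraries. The 23 fibroblast regions held 705 and 1033, the 11 T cell regions 618 and 385 and the 14 mast cell regions 154 and 116. Outside promoters, regions at Cd2 (1, higher), Ms4a1 (1, lower), Flt3 (1, lower) and Xcr1 (2, lower) were past the rule. An intron of Ms4a1, a B cell marker gene, held 254 and 212 tags in basal and 47.5 and 32.2 at 24 h (limma time-course adjusted p 0.0329). Whether other cells contributed there was not tested.

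Summed over all regions of a gene, H3K27ac gave 0 genes called of 15215 (limma, with 790 higher and 3207 lower at an unadjusted p under 0.05), and the lowest adjusted p was 0.0602. With a minimum mean of 16 tags limma called 39 higher and 71 lower genes, and without basal replicate 1 it called 268 and 619 and without basal replicate 2 135 and 255, where the 24 h libraries alone gave the spread. Without either 24 h library it called 0, with 2708 (without replicate 1) and 2049 (without replicate 2) under 0.05 before adjustment. Among the 8 highest-ranked increases, Slc7a2 went from 27.1 and 15 to 601 and 310 summed tags and Msx3 from 10.2 and 15.7 to 302 and 255, and 4 were angiogenin and ribonuclease paralogs (Ang5, Ear14, Rnase2a and Ang2). That family was grouped after these values were seen. At 12 of its genes 16 of 31 regions were higher and 0 lower, against 3.25% and 3.12% of all regions. Reads may be shared between the copies. Ranked decreases included Maf, from 6056 and 7017 to 2014 and 2061, Nlrp3, from 3871 and 3485 to 1021 and 946, and Il10ra, an interleukin-10 receptor gene, from 4318 and 4462 to 1491 and 1488.

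Some genes had many changed regions. After the multi-copy Sfi1 (26 of 89), Bhlhe40 (23 of 38), Ado (13 of 33), Creb5 (12 of 31) and Socs1 (11 of 17) had the most higher regions. Genes with many lower regions included Maf (17 of 44), B4galt6 (11 of 17), Zfp36l2 (11 of 57) and Pid1 (9 of 27). In all, 213 genes had at least 3 higher and 206 at least 3 lower regions.

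RNA polymerase II (Pol II), measured in other libraries (4 basal, 3 at 24 h), moved with H3K27ac. The median log2 fold of Pol II was 0.96 at the higher and -0.97 at the lower regions, against -0.05 over all, and it was above 0 at 91.9% of the higher and 4.16% of the lower regions. The fold rule asked of Pol II a 2.5-fold difference as deposited and a mean of at least 8 tags in either group. It set no condition on overlap. Pol II was higher at 618 of 2205 higher regions (28.0%, against 1.57% of all) and lower at 556 of 2115 lower regions (26.3%, against 1.66%). limma called Pol II higher at 118 of the higher regions and lower at 52 of the lower ones, where it called 151 (0.223%) and 65 (0.096%) of all regions. These counts rested on few libraries, being 463 and 226 over all regions without basal replicate 1, 52 and 12 without basal replicate 2, 36 and 2 without basal replicate 3, 28 and 3 without basal replicate 4, 160 and 69 without 24 h replicate 3, 1 and 0 without 24 h replicate 1, and 0 and 0 without 24 h replicate 2. In that last fit 5538 regions had an unadjusted p under 0.05. With every library kept, edgeR called 185 and 54 and DESeq2 463 and 417.

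Exceptions in direction were named after their values were seen. A lower region 50953 bp from the start of Atp6v0d2 (chr4:19871152-19872152) had H3K27ac of 95 and 252 in basal and 25.5 and 41.4 at 24 h, while its mean Pol II went from 66.4 ± 21.3 (SD, n = 4) to 235 ± 69.5 (SD, n = 3; limma adjusted p 0.0392). The reverse was seen at the last exon of Thbs1, a higher region where mean Pol II went from 8.12 ± 9.01 to 1.27 ± 1.11 normalized tags without a call (limma adjusted p 0.439).

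Single regions show how far Pol II went. At 4315 bp from the Socs1 start (chr16:10780721-10781721) it was 16.9, 13.6, 10.7 and 3.04 tags in basal and 502, 976 and 123 at 24 h (limma adjusted p 0.0036). There H3K27ac was 0.68 and 0 in basal and 33.1 and 16.4 at 24 h. At the Slc7a2 promoter Pol II was 40.6, 12.8, 2.14 and 4.05 in basal and 241, 195 and 69.3 at 24 h (limma adjusted p 0.0265). At the Cx3cr1 promoter it was 26.8, 29.7, 68.6 and 84.0 in basal and 2.67, 3.64 and 7.70 at 24 h (limma adjusted p 0.013). In all 3 the groups did not overlap. The intron of Zfp385a, among the 12 largest H3K27ac increases (from 0 and 2.85 to 34.8 and 108), had Pol II of 13.1, 16.9, 20.9 and 16.2 in basal and 7.34, 20.9 and 19.2 at 24 h, where the groups overlapped, and no peak of any factor examined.

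Methylation of lysine 4 of histone H3 was also measured. H3K4me2, a mark of promoters and enhancers, had a median log2 fold of 0.33 at the higher and -0.94 at the lower regions, against -0.66 over all regions, and after median-ratio rescaling these were 0.98, -0.29 and -0.01. limma called H3K4me2 higher at 91 and lower at 4 of the higher regions, and higher at 0 and lower at 13 of the lower ones, where it called 121 (0.179%) and 39 (0.0576%) of all regions. For H3K4me3, the promoter mark, the medians were 1.10, -0.21 and 0.12 on low levels (1.22 tags at the median higher region in basal cells), and by limma 0 regions passed, although 13232 did so before adjustment, and no other tool was run.

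Factor peaks differed between the sets. Peaks of STAT6 at 24 h overlapped 76.1% of the higher and 68.4% of the lower regions, against 46.6% of all and 63.5% of those with at least 16 tags. The contrast lay in when the peak was present: a STAT6 peak found at 24 h but not in basal cells overlapped 56.0% of higher and 3.97% of lower regions (14.4% of all and 16.7% of those with at least 16 tags), whereas a basal STAT6 peak overlapped 20.8% and 78.8% (39.3% and 56.2%). EGR2 peaks at 24 h overlapped 62.3% of higher and 27.3% of lower regions, against 38.5% of all and 50.7% of those with at least 16 tags. For PPARg the shares were 56.0% and 51.2%, against 39.4% and 50.3%, and for CEBPb 59.7% and 51.6%, against 40.4% and 50.9%, so that the lower regions lay near the share of regions with enough tags. PU1 peaks were present in basal cells at 46.9% of higher and 90.8% of lower regions, against 64.5% of all and 80.1% of those with at least 16 tags, and a PU1 peak found only at 24 h overlapped 30.0% and 1.70%, against 7.22% and 6.92%. No 24 h peak of the 5 factors overlapped 5.40% of higher and 6.15% of lower regions, close to the 5.25% of all regions with at least 16 tags. Peak lists stand for a group each and grow with the depth of their libraries, so these shares have no replicate error. A basal mean under 16 tags was found in 71.1% of higher and 0 lower regions, against 7.53% of regions with at least 16 tags in either group. Neither comparison set thus has the basal levels of the higher or the lower regions. How far the choice of regions sets the shares of basal and 24 h peaks was not tested.

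Motif words in the central 300 bases also differed in share between the sets. The STAT6-type word was in 21.6% of higher and 3.78% of lower regions, against 7.19% of all, and TTCNNNGAA in 12.8%, 6.57% and 8.14%. The AP-1-type word TGANTCA was in 29.8%, 19.2% and 19.7%, and the C/EBP-type word TTGCNCAA in 7.98%, 5.20% and 5.70%. The PU.1-type word GAGGAAGT was in 7.71% of higher and 17.7% of lower regions, against 9.53% of all. The EGR-type word GCGNGGGCG was in 0.68%, 1.23% and 3.30%, and GC content was 48.7%, 49.7% and 51.7% at the median. A pair of GAAA words 2 bases apart, IRF-type, was in 3.99%, 4.35% and 3.88%, and a direct repeat of AGGTCA with 1 base between, bound by PPARg with RXR, in 0 higher regions, 1 lower region and 38 of all. A word match is a description and not a binding site, and words may overlap each other.

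The other 4 strains gave libraries that no C57 value used (2 basal and 2 at 24 h each), at regions whose centres lay within 500 bp. The fold rule was applied to their values as deposited, with no condition on overlap. BALB/cJ was past the fold rule in the higher direction at 926 of 1585 matched higher regions (58.4%, against 2.54% of all matched regions) and in the lower direction at 1141 of 1891 lower regions (60.3%, against 4.91%). NOD/ShiLtJ gave 1134 of 1743 (65.1%, against 3.15%) and 1231 of 1947 (63.2%, against 5.2%). PWK/PhJ gave 693 of 1548 (44.8%, against 2.81%) and 603 of 1712 (35.2%, against 3.06%). SPRET/EiJ gave 419 of 1182 (35.4%, against 2.28%) and 172 of 1401 (12.3%, against 0.981%). After median-ratio rescaling the lower shares were 32.4% (against 1.98%) in BALB, 44.8% (3.03%) in NOD, 21.9% (1.61%) in PWK and 9.56% (0.661%) in SPRET. In both directions, as deposited, the share was highest in NOD, followed by BALB, PWK and SPRET, and the differences between strains were not tested.

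Among regions matched in all 4 strains, 197 of 877 higher regions (22.5%) were past the rule in every strain and 155 (17.7%) in none, and for 1216 lower regions the counts were 75 (6.17%) and 252 (20.7%). Over all 30552 such regions, 208 (0.68%) were higher in every strain and 91 (0.30%) lower. The intron of Nbas was one of those past the rule in all 4, with 8.08 and 1.19 against 135 and 71.9 tags in BALB, 2.49 and 0.79 against 124 and 108 in NOD, 0 and 0 against 86.9 and 111 in PWK, and 4.27 and 19.1 against 480 and 200 in SPRET. Opposite calls were rare and were named after their values were seen. They were a higher C57 region near Slc30a1 that was lower in PWK, a lower one in Amigo3 that was higher in PWK, and 2 mitochondrial regions at mt-Cytb that were lower in SPRET. At both mt-Cytb regions the SPRET groups overlapped, with 152 and 0 tags in basal and 31.7 and 16.2 at 24 h in 1 of them. In the other they were 49.6 and 3.95 against 6.17 and 4.31.

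**Figure D5:**
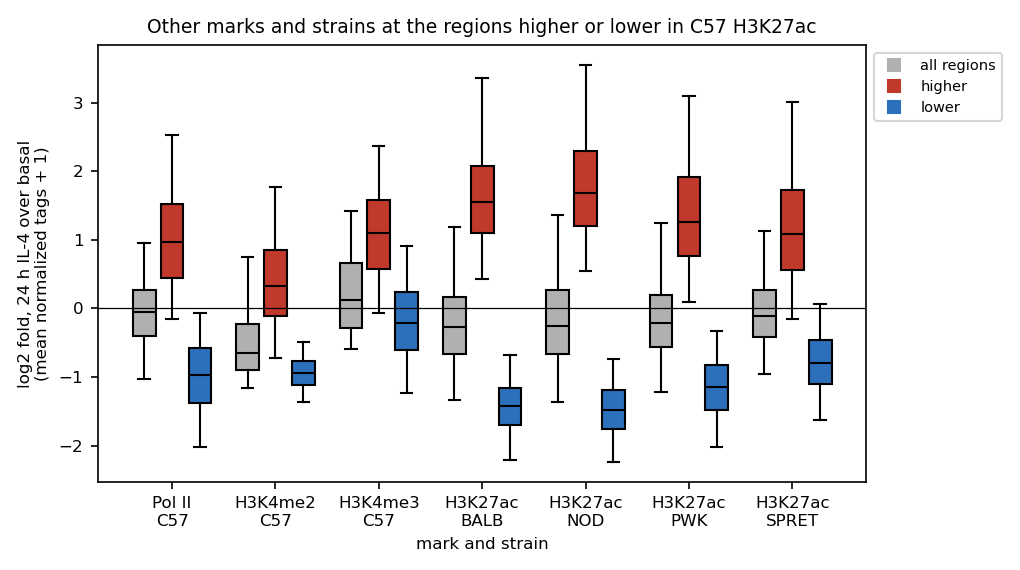
Log2 fold of 24 h IL-4 over basal at all regions (grey) and at the higher (red) and lower (blue) C57 H3K27ac regions, for 3 other marks of C57 and for H3K27ac of 4 other strains at matched regions. Boxes span the quartiles with the median as a line and whiskers the 5th to 95th percentiles; Pol II medians are 0.96 and -0.97, and H3K27ac medians lie on opposite sides of 0 in every strain.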

How the data were processed

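H3K27ac ChIP-seq of C57 macrophages was analysed in 2 basal and 2 24 h IL-4 libraries. The authors aligned reads to mm10 with Bowtie2 2.2.9 and counted them with HOMER 4.11.1 in 1000 bp regions around open-chromatin peaks, per the labels and the methods. The deposited signal is a tag count scaled by the authors to 10000000 tags per library. Whole reads were recovered for 100% of 270968 values within 0.1 read, and a mean of 16 normalized tags stood for 18.8 to 24.4 reads per library. The peak score in the deposited factor peak lists was not used, only the positions, with an overlap of at least 1 bp.

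Fold changes used the group mean plus 1. limma 3.58.1 (R 4.3.3) was fitted on log2(value + 1) over all regions of a table with Benjamini-Hochberg adjustment at 0.05, for the 4 libraries, for the 8 libraries of the time course, for sums per gene, for RNA polymerase II and for H3K4 methylation. edgeR 4.0.16 and DESeq2 1.42.0 on recovered reads were alternatives. Other work used Python 3.11.15, numpy 2.4.6, pandas 2.3.3, scipy 1.17.1 and matplotlib 3.10.9. The limma fits, apart from those of H3K4 methylation, were tested on simulated data. The edgeR and DESeq2 fits were not.

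The deposited annotation pairs no intergenic region with a gene, so the nearest of 41482 protein-coding starts (GENCODE vM21 basic) was used. A start lay within 1000 bp of 96.0% of promoter regions and of 1.95% of intergenic ones. Named genes were the 12 with the largest increase and decrease, the largest changes of each gene list, the genes with the most changed regions, preset IL-4 and macrophage genes, and the lowest adjusted p of the time course and of gene sums. The members and lists were chosen with earlier results of these data known. DNA letters come from the GRCm38.p6 reference. One gene that the rule names is not reported here.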

Additional observations from a re-analysis of the deposited data

How the results depend on the processing

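Past the fold rule, 5742 regions were higher without a minimum, 1473 with a minimum of 32 tags and 3564 with median-ratio scaling, and 10592 were lower at a fold of 2, 2185 with median-ratio scaling and 2002 with quantile normalization, which was chosen after seeing the data. Leaving out 1 library at a time gave 2237 to 3135 higher and 5051 to 7531 lower. limma on the 4 libraries called 2 higher with median-ratio scaling, DESeq2 called 1073 and 2524, and leaving out 1 library gave 0 to 205 and 0 to 35. The time-course fit called 507 higher with a minimum mean of 16 tags, 1359 with median-ratio scaling and 30 lower with quantile normalization, and 348 to 1690 and 21 to 2244 with 1 library left out. Gene sums gave 39 and 71 with the minimum, and 0 to 268 and 0 to 619 with 1 library left out. Pol II gave 291 and 105 with median-ratio scaling, 463 and 417 with DESeq2, and 0 to 463 and 0 to 226 with 1 library left out.

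With the replicate number as a block, limma called 5736 higher and 20021 lower on the 4 libraries, 3334 and 2792 in the time course, 1191 and 6828 genes, and 281 and 267 regions for Pol II. Same-numbered libraries deviated together (correlation 0.71 over 41685 regions), but the labels do not pair them and there are only 2 numbers, so the pairing was not used.

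With median-ratio scaling, the higher C57 regions past the rule made up 74.9% for BALB, 76.1% for NOD, 55.1% for PWK and 39.2% for SPRET of those matched, the lower ones 32.4%, 44.8%, 21.9% and 9.56% for the same strains, and EGR2, STAT6 and CEBPb peaks overlapped 59.8%, 71.8% and 57.1% of higher regions. At a fold of 2, lower regions were promoters in 10.7% and intergenic in 38.2%, and 34.0% held an EGR2 peak. Why these values moved was not tested. Of the 11 named regions not past the rule, 3 changed sign under at least 1 alternative. Regions past the rule were chosen under both scalings, so their sign says nothing of stability. With 2 libraries a group, changes near the spread between libraries were not detectable.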
